A study of Mus musculus with 27 samples.

Results

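The genes described here are 10 Polycomb group genes, Bmi1, Ring1, Rnf2, Ezh1, Ezh2, Eed, Suz12, Cbx2, Cbx7 and Cbx8, out of 37208 genes or transcripts on a mouse expression array. They were chosen by name, and their probes were found through the RefSeq entry that the array files give for each probe. RNA from 27 samples in 13 groups was hybridized to one-colour Agilent arrays. All samples came from 1 mouse embryonic stem cell line, A2lox dnFOS, which carries at its Hprt locus a cassette for a dominant-negative FOS peptide that doxycycline (DOX) switches on. The peptide binds JUN proteins, so that AP-1, the FOS and JUN family of transcription factors, cannot bind DNA, and the arrays ask how expression along the path from mesoderm to blood depends on it. Cells were differentiated as embryoid bodies for 3.75 days, and FLK1+ cells, the hemangioblast fraction, were purified and either used directly (FLK1+, never given DOX) or placed in blast culture. Complete cultures were taken at 5 h (FLK1+ 5h) and 24 h (d1 BC). From day 2 cultures 4 populations were sorted, namely SM (smooth muscle cells), HE1 (KIT+TIE2+CD41- hemogenic endothelium), HE2 (KIT+TIE2+CD41+ hemogenic endothelium committing to blood) and HP (KIT+TIE2-CD41+ hematopoietic progenitors). Each of these 6 populations was grown without DOX and with 1 µg/ml DOX, which was present for 5 h in FLK1+ 5h, for 1 day in d1 BC and for 2 days in the sorted populations, so that the length of exposure was the same among the 4 sorted populations and cannot be told apart from population against the 2 cultures. Every group had 2 arrays, apart from untreated SM with 3. The cassette was carried by all groups, and cells without it that had been given DOX were not among these arrays, so DOX itself and the peptide cannot be told apart. Nothing in the sources says that replicates were separate cultures, and p-values then measure the spread between these samples, which may be technical.

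Polycomb proteins keep developmental genes silent by modifying the histones around them. Polycomb repressive complex 2 (PRC2) methylates lysine 27 of histone H3 through EZH1 or EZH2, which need EED and SUZ12, and Polycomb repressive complex 1 (PRC1) adds ubiquitin to histone H2A through RING1 or RNF2, which pair with a PCGF protein such as BMI1. CBX2, CBX7 and CBX8 are PRC1 subunits that read the methyl mark. In blood, BMI1 is known for sustaining the self-renewal of hematopoietic stem cells and for repressing the Cdkn2a locus, which encodes inhibitors of the cell cycle, and EZH1 is known for its part in holding back definitive blood programmes in the embryo.

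Promoter windows of 300 bases around the start of the gene were taken from RefSeq on build GRCm38.p6 and matched to 9 of the 10 genes, all but Cbx2. These windows were searched on both strands for letters bound by AP-1 and by factors of cell division genes. The AP-1 letters TGANTCA were in 0 of the 9 windows and in 7.81% of 32851 windows over all genes. The related cAMP response element TGACGTCA, whose letters cannot match those of the AP-1 site, was in the Cbx8 window and in 1.79% of all windows. The E2F letters TTTCCCGC or TTTGGCGC, bound by factors that switch on genes of DNA replication, were in the Ezh2 and Suz12 windows and in 1.56% of all windows. CCAAT was in 5 of 9 windows (Ezh2, Eed, Suz12, Cbx7 and Cbx8) and in 37.4% of all, the GC box GGGCGG in 6 of 9 and 35.7% of all, and the E-box CACGTG in the Bmi1 and Cbx8 windows and in 7.15% of all. A match is a description and not a measured site, and 0 matches say only that these letters are not in these windows. Of the windows, 4 are printed, that of Bmi1 as the gene with the highest mean DOX difference below, that of Ezh1 as a gene that differed between untreated populations, and those of Ezh2 and Suz12 as the holders of the E2F letters. Capitals mark the letters of E2F and CCAAT, the latter on either strand, and the Bmi1 and Ezh1 windows hold neither.
Bmi1 (chr2:18676768-18677067, plus strand): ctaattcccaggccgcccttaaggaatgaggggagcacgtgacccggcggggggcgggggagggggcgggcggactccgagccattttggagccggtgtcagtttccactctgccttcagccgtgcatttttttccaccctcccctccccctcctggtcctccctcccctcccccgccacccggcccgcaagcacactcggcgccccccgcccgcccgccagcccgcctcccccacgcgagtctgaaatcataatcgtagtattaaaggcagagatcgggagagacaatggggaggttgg
Ezh1 (chr11:101226414-101226713, minus strand): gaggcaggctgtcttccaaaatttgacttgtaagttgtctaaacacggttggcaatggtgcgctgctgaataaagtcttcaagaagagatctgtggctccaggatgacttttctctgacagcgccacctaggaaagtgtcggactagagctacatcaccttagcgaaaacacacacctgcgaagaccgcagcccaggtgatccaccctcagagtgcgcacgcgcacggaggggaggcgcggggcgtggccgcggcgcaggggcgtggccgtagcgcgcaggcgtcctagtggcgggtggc
Ezh2 (chr6:47594981-47595280, minus strand): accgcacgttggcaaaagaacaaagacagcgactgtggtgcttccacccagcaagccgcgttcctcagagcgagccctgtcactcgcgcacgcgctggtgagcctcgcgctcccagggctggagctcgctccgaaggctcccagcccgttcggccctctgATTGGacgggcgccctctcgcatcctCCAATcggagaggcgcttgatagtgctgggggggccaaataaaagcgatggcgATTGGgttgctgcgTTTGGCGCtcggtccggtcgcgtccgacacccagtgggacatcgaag
Suz12 (chr11:79992856-79993155, plus strand): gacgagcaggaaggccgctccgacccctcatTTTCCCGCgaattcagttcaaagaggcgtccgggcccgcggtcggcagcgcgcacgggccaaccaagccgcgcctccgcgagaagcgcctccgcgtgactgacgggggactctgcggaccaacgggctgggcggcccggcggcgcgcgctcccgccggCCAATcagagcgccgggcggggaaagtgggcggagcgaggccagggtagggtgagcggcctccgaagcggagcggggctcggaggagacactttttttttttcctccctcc

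The measurements are log2 signals of 1 probe per gene, the brightest on average, relative to the 75th percentile of the same array. They allow the same gene to be compared between arrays and not one gene with another. The 75th percentile ranged from 73.2 to 636 intensity units, 46.8% to 89.6% of probes were well above background, and 0 spots were saturated. The lowest percentile was that of untreated HE2 replicate 1, beside 263 for HE2 DOX replicate 1. Next were untreated HE1 replicates 1 and 2, at 125 and 128, beside 138 and 335 for HE1 DOX replicates 1 and 2. In all 6 populations every DOX array lay above every untreated array in Hprt, the locus of the cassette, with gaps from 1.02 to 3.11 on the log2 scale. Most smooth muscle, endothelial and hematopoietic markers were detected in every population, so the labels were set against mean levels. Smooth muscle markers had means of 3.78 to 4.87 on SM arrays and -0.92 to 3.26 on HE1, HE2 and HP arrays, but were brightest in d1 BC (5.28 to 5.38). Endothelial markers had means of 2.90 to 4.17 in HE1 and HE2, above all other arrays. Hematopoietic markers had means of 2.24 to 2.92 in HE2 and HP and at most 0.45 elsewhere, HE1 included. SM replicate 2 and SM DOX replicate 2 stood apart, with mean endothelial signals of 2.27 and 2.05 against -0.79, -0.45 and -0.64 on the other SM arrays, and are left out once below. HE1 replicate 1 carried more fibroblast markers than replicate 2 (mean 2.02 against -1.36), as did HE1 DOX replicate 1 (1.77 against -0.23). Untreated SM arrays also had all 6 erythroid markers well above background, at means from 0.43 to 2.75. Myeloid means ran from -2.43 in SM DOX to 2.71 in HP, and pluripotency means from -4.30 in HE2 to 0.43 in SM. The arrays lay on 5 slides. Replicate 2 of every sorted group was on slide 2, and replicate 1 of HE1, HE2 and HP, with and without DOX, was on slide 5 together with SM replicate 3.

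Of the 10 genes, 7 (Bmi1, Rnf2, Ezh1, Ezh2, Eed, Suz12 and Cbx2) were well above background on all 27 arrays. Ring1 was well above background on 25 arrays and missed it on 1 HE2 and 1 HE1 DOX array. Cbx8 was well above background on 19 arrays, and the other 8 were all 7 arrays of slide 5 and FLK1+ 5h replicate 1, which was alone on its slide. Cbx7 was well above background on 1 array, HP DOX replicate 2, and was tested in no comparison.

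Bmi1, a PCGF subunit of canonical PRC1, was detected in every population. Its replicates lay far apart in many groups, though not in untreated FLK1+ 5h or in d1 BC with DOX. Without DOX its log2 signal was 0.47 and 1.51 in FLK1+, 0.91 and 0.73 in FLK1+ 5h, and 0.02 and 1.24 in d1 BC. In the sorted untreated cells it was 1.13, 1.69 and 0.47 in SM, 0.54 and 1.16 in HE1, 0.11 and 1.96 in HE2, and 1.61 and 2.28 in HP. Under DOX the cultures gave -0.41 and 0.82 (FLK1+ 5h) and 1.85 and 1.67 (d1 BC), and the sorted cells 1.46 and 3.28 (SM), 0.65 and 2.52 (HE1), 1.91 and 3.26 (HE2) and 1.58 and 2.67 (HP). The HP arrays were the highest of the untreated arrays on average, at 1.94 ± 0.47 (SD, n = 2), and the other untreated means were lower, down to 0.63 ± 0.87 (SD, n = 2) in d1 BC, and lay within the spread of their replicates. With DOX the group means ran from 0.21 in FLK1+ 5h to 2.59 in HE2. A second Bmi1 probe followed the first over the 27 arrays with r = 0.95.

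RING1 and RNF2 are the ubiquitin ligases of PRC1. Rnf2 lay between 1.88 and 3.98 over all arrays, and its lowest array was replicate 1 of untreated HE2. It was 1.88 and 2.71 in untreated HE2 and 3.47 and 3.89 in HE2 with DOX. The untreated and the DOX arrays of HE2 did not overlap. Ring1 was dim, from -3.61 to 0.04. Its highest array was FLK1+ replicate 1 at 0.04, and its replicates in HE1 were -3.32 and -0.74.

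Cbx2, whose product brings canonical PRC1 to methylated histone H3, had its highest untreated mean in FLK1+ cells and lower means at each later stage up to HE2. Its log2 signal was 3.43 and 2.81 in FLK1+, 2.55 and 2.89 in FLK1+ 5h, and 1.93 and 1.97 in d1 BC. It was 1.76, 2.08 and 1.79 in SM, 1.16 and 1.19 in HE1, 0.13 and 0.78 in HE2, and 1.00 and 0.71 in HP. Both HE1 arrays lay below all d1 BC and SM arrays, which lay below all FLK1+ and FLK1+ 5h arrays. Neighbours in this order that overlapped were FLK1+ with FLK1+ 5h, d1 BC with SM, and HE2 with HP. Cbx8 was brighter in the untreated FLK1+ (-1.41 and -1.32) and d1 BC cultures (-1.55 and -0.85) than in HE1 (-5.56 and -3.63), where 1 of 2 arrays was well above background, but the arrays below background were those of slide 5 and slide 3, so that slide and level cannot be told apart for it.

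EZH1 and EZH2 are the catalytic subunits of PRC2. Among untreated groups Ezh1 had its lowest mean in d1 BC, at 1.28 and 1.33, and its highest in HE1, at 3.39 and 3.46. It was 2.49 and 2.09 in FLK1+, 2.06 and 1.32 in FLK1+ 5h, 1.78, 2.98 and 1.94 in SM, 2.56 and 2.93 in HE2, and 2.35 and 2.86 in HP. Both HE1 arrays lay above every other untreated array, and the SM array that came nearest was replicate 2, which also carried the endothelial markers.

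Ezh2 was 3.63 and 3.85 in FLK1+, 3.63 and 3.68 in FLK1+ 5h, and 3.51 and 3.57 in d1 BC. In sorted cells its replicates were far apart, at 2.93, 3.57 and 1.54 in SM, 1.72 and 3.06 in HE1, 2.17 and 3.68 in HE2, and 2.44 and 3.93 in HP. The core subunits had the same split between replicates in part. Suz12 was 0.24 and 1.29 in HE1 and 0.20 and 1.89 in HE2, and Eed was 3.68 and 3.93 in HE1 and 3.87 and 4.23 in HE2. In each of these pairs the higher array was the one on slide 2.

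**Figure D1:**
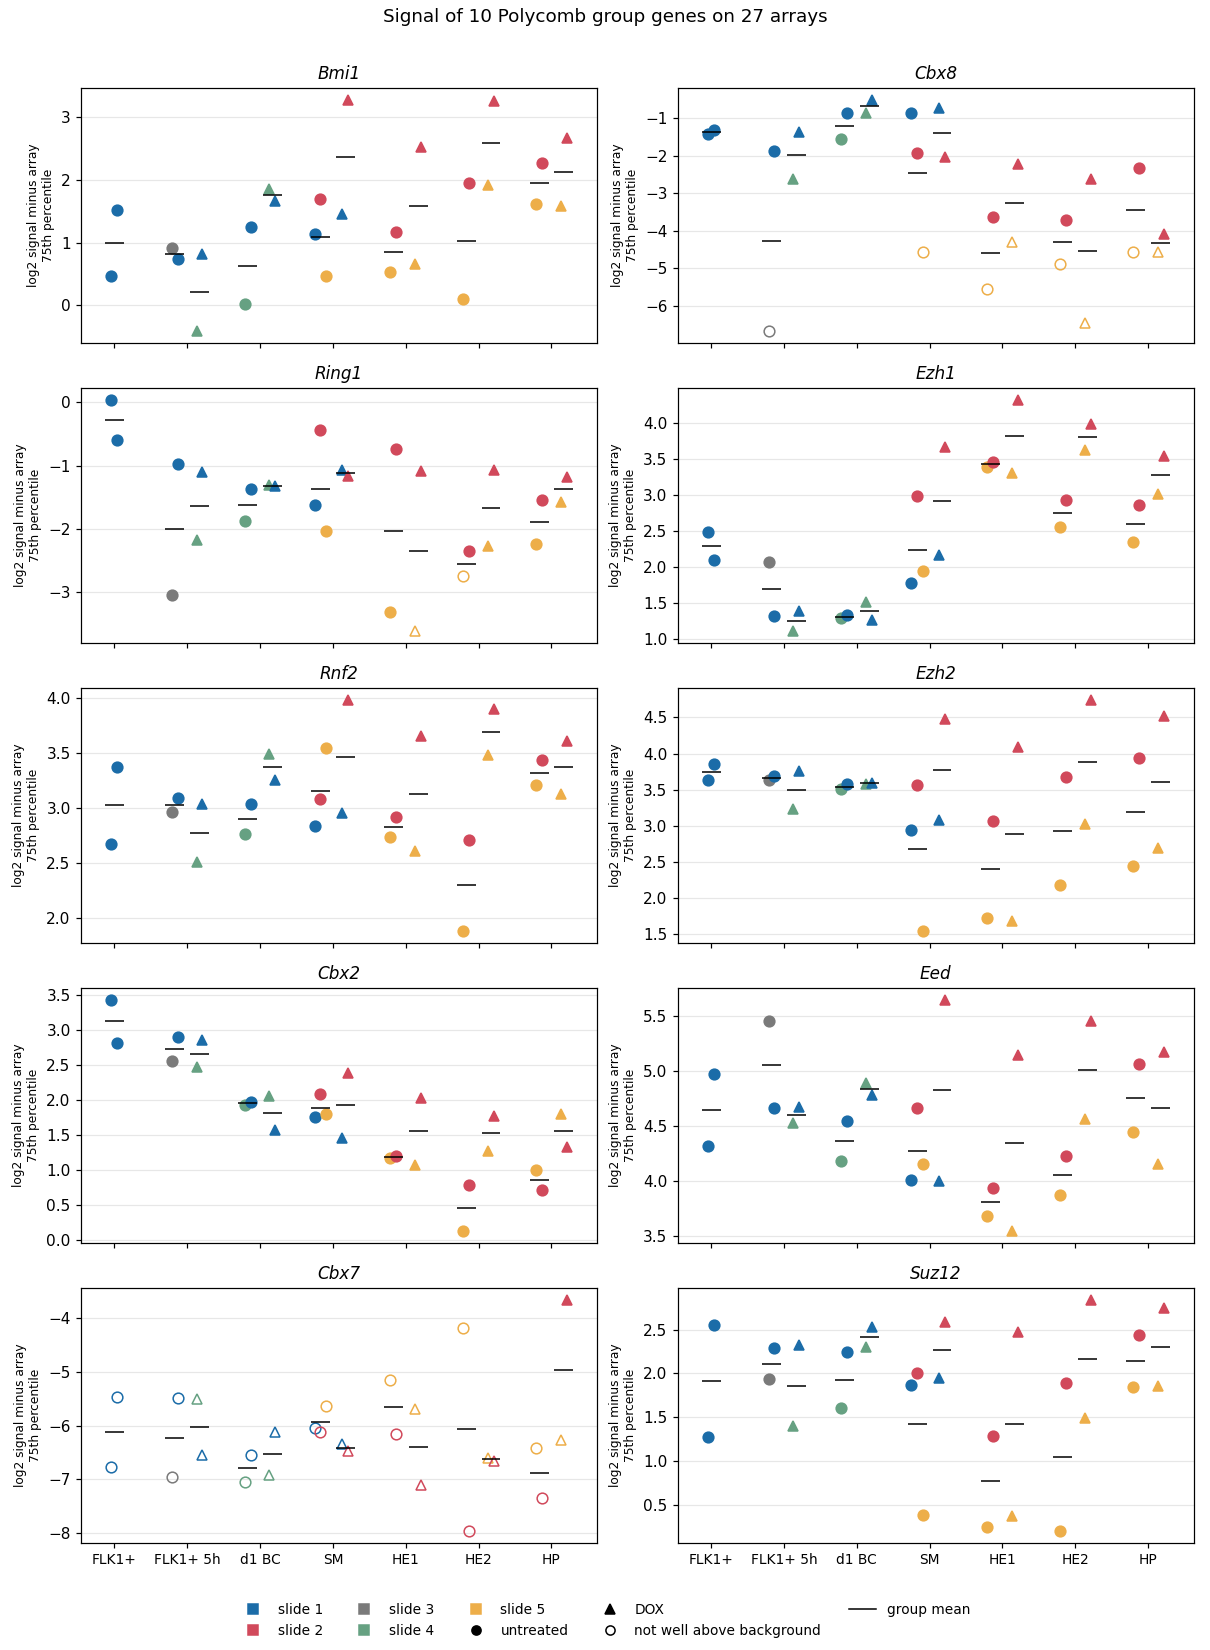
Log2 signal relative to the 75th percentile of the array (vertical axis) for each of the 10 genes, 1 panel per gene, by population. Circles are untreated and triangles DOX arrays, colour is the slide, open symbols were not well above background, and lines are group means; Cbx2 steps down from FLK1+ (3.43 and 2.81) to HE2 (0.13 and 0.78), Ezh1 peaks in HE1, and Ezh2 splits by slide in sorted cells.

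The untreated groups ask how the genes vary along differentiation. Of 9 steps or pairs compared, 2 gave a call, that is, a change of 2-fold or more whose adjusted p in limma was below 0.05. Ezh1 was 4.34-fold higher in HE1 than in d1 BC, and Cbx2 was 3.85-fold lower in HE1 than in FLK1+ cells. Between d1 BC and HE1 the log2 fold change of Ezh1 was 2.12 (SE 0.56, adjusted p = 0.0433), and 1 of 9 tested Polycomb genes was called, against 3.13% of all genes tested (1.83% called higher). Between FLK1+ and HE1 the log2 fold change of Cbx2 was -1.94 (SE 0.48, adjusted p = 0.0137), and again 1 of 9 genes was called, against 11.6% of all genes (4.75% called lower). From FLK1+ to HE1 the 9 genes had a median log2 fold change of -1.15, with 1 of 9 above 0, beside a median of 0.08 over all genes, and -0.56 from d1 BC to HE1, beside 0.05. In the other 7 comparisons 0 of the genes were called, where 0.00395% (HE2 to HP), 0.234% (d1 BC to SM), 0.568% (SM to HE1), 1.44% (FLK1+ 5h to d1 BC), 2.33% (HE1 to HE2), 2.84% (FLK1+ to FLK1+ 5h) and 4.22% (HE1 to HP) of all genes were. An F test over the 7 untreated groups called 1 of 9 genes, Cbx2 (adjusted p = 0.00256), against 17.9% of all genes, and Ezh1 had an adjusted p of 0.109. In these bulk samples fewer cells of a type and less RNA per cell cannot be told apart.

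The Ezh1 call depended on the processing, and both calls on single arrays. FLK1+ and d1 BC arrays share no slide with HE1 arrays. With the slide as a fixed block the Ezh1 difference was 1.19 (adjusted p = 0.278), and with each array scaled to its median, which moved the median of all genes by -0.73, it was 1.39 (adjusted p = 0.254). A second Ezh1 probe that correlated with the first at r = 0.72 gave 1.75 between d1 BC and HE1 (adjusted p = 0.0630 with every probe tested), and a dim probe (18 arrays, r = 0.28) gave 1.89 (adjusted p = 0.392). Ezh1 was also higher in HE1 than in SM within both slides that hold both, by 0.48 on slide 2 and 1.44 on slide 5, and the difference of means was 1.19 (adjusted p = 0.460). The Cbx2 difference was not called in a fit to the compared groups alone (adjusted p = 0.0682), nor without FLK1+ replicate 1 (-1.64, adjusted p = 0.150), HE1 replicate 1 (adjusted p = 0.0819) or HE1 replicate 2 (adjusted p = 0.0677). Median scaling moved the median of all genes from FLK1+ to HE1 by -0.99. Within slides Cbx2 was lower in HE1 than in SM by -0.89 and -0.63 and in HE2 than in HE1 by -0.41 and -1.04.

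**Figure D2:**
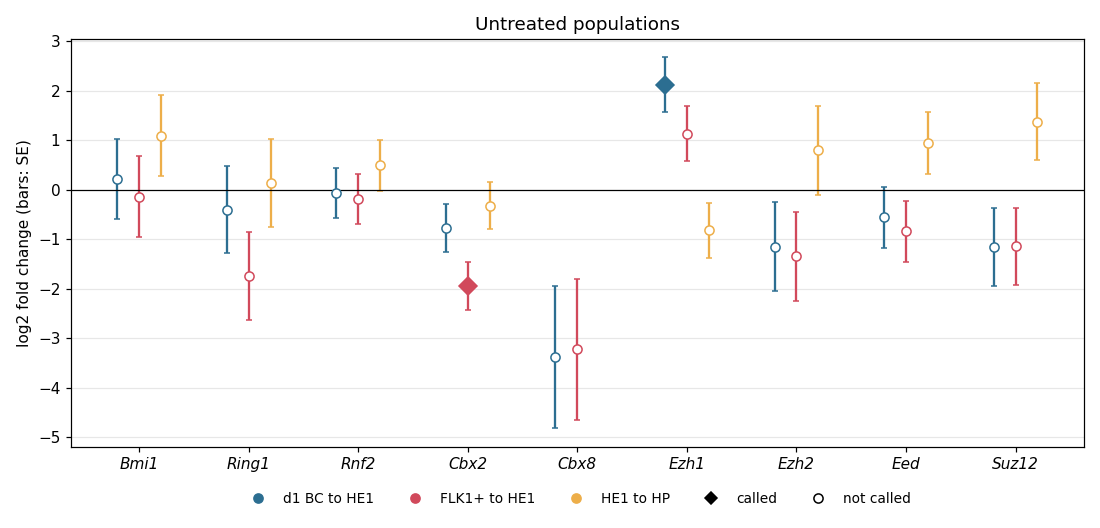
Log2 fold change of each gene between untreated populations, from d1 BC to HE1, from FLK1+ to HE1 and from HE1 to HP, with bars for the standard error of the limma fit. Diamonds mark the 2 calls, Ezh1 at 2.12 from d1 BC to HE1 and Cbx2 at -1.94 from FLK1+ to HE1.

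The second question is whether blocking AP-1 with DOX changed these genes. Of the Polycomb genes tested, 0 were called in any of the 6 populations. Few genes on the array were, since the share of all genes called was 0.00421% for FLK1+ 5h, 0.0084% for SM, 0.0398% for HP and 0% for d1 BC, HE1 and HE2. At an unadjusted p under 0.05 there were 2 values, both in HE2, where 8.92% of all genes passed. Rnf2 was higher with DOX by 1.39 (SE 0.51, adjusted p = 0.540, limma), and Cbx2 by 1.07 (SE 0.48, adjusted p = 0.540, limma). The study named Bmi1, together with Hoxb4 and Gfi1, among stem cell genes that were higher on these arrays when AP-1 was blocked. It also refers to manual validations. The direction of Bmi1 is therefore not independent evidence. Its DOX difference was -0.62 for FLK1+ 5h and 1.13 for d1 BC. Among sorted cells it was 1.27 for SM, 0.73 for HE1, 1.56 for HE2 and 0.18 for HP. The SE was 0.81 in each population or, for SM, 0.74. With the slide as a fixed block 0 of the genes were called in any population, and the SE were smaller. The Bmi1 difference was then -0.14 for FLK1+ 5h (SE 0.64), 1.03 for SM (SE 0.47) and unchanged elsewhere (SE 0.50, adjusted p = 0.104 in HE2), and in HE2 Rnf2 had an SE of 0.39 (adjusted p = 0.0977) and Cbx2 of 0.40 (adjusted p = 0.127).

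Sizes were on the side of more signal with DOX from 24 h on. The median log2 difference of the tested genes was -0.25 for FLK1+ 5h (2 of 9 above 0) and 0.47 for d1 BC (8 of 9), and it was 0.68 for SM (9 of 9), 0.44 for HE1 (7 of 8), 1.06 for HE2 (8 of 8) and 0.30 for HP (7 of 8). The medians of all genes were -0.04, 0.13, 0.09, 0.09, 0.17 and 0.25 in the same order. Several of these rest on single arrays or on the scaling. The HE1 median was -0.24 with 0 of 8 above 0 without HE1 DOX replicate 2, but 1.34 with 9 of 9 without HE1 DOX replicate 1 and 0.82 with 8 of 8 without HE1 replicate 2. The HP median was -0.24 with 3 of 8 without HP DOX replicate 2 and -0.14 with 3 of 9 without HP replicate 1, but 0.66 with 9 of 10 without HP DOX replicate 1 and 0.54 with 8 of 8 without HP replicate 2. The SM median was 0.30 with 5 of 9 above 0 without SM DOX replicate 2 and 0.45 with 8 of 9 without SM replicate 1, but 1.17 with 9 of 9 without SM DOX replicate 1 and 1.05 with 9 of 9 without SM replicate 2, and without both SM arrays of slide 2, left out after seeing the data, it was 0.66 with 6 of 9. In d1 BC the median was 0.17 without d1 BC replicate 1, beside 0.21 over all genes, and 0.35 without d1 BC DOX replicate 2, beside 0.34. The FLK1+ 5h median was 0.10 with 6 of 9 above 0 without FLK1+ 5h DOX replicate 1, -0.51 with 1 of 9 without FLK1+ 5h DOX replicate 2 and -0.14 with 3 of 9 without FLK1+ 5h replicate 2. In HE2 the median lay between 0.67 and 1.60 when any 1 of its 4 arrays was left out, with 8 of 8, 8 of 9 or 9 of 9 above 0. Median scaling moved the median of all genes by -0.64 in FLK1+ 5h and -0.30 in HP, and by 0.28 in HE1, 0.34 in SM and 0.46 in HE2, and with it 4 of 8 genes were above 0 in HP. With the authors' processed values 5 of 9 were above 0 in d1 BC.

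Both DOX arrays lay above both untreated arrays for 6 of 9 genes in d1 BC (Bmi1, Ring1, Rnf2, Ezh2, Eed and Suz12), where the same held for 18.4% of all genes tested. In HE2 it held for 5 of 8 genes (Ring1, Rnf2, Ezh1, Eed and Cbx2), against 20.4% of all genes, and in HP for Ezh1 and Cbx2, 2 of 8, against 25.6%. In FLK1+ 5h, SM and HE1 it held for 0 of the genes tested, against 18.5%, 4.47% and 8.74% of all genes. Some of the d1 BC arrays were barely apart. Ezh2 was 3.58 and 3.60 with DOX and 3.51 and 3.57 without. Ring1 was -1.31 and -1.32 with DOX and -1.88 and -1.37 without.

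Each untreated array can also be set against the DOX array of the same population on the same slide, which gives 11 pairs. Suz12 was higher with DOX in 11 of 11 pairs, by as little as 0.01, a count that 1.29% of 28010 genes reached. Bmi1 and Ezh2 were higher in 10 of 11 pairs, and 5.64% of all genes were higher in at least 10. Ezh1 was higher in 9 pairs (15.3% of genes in at least 9), Rnf2 and Eed in 8 (29% in at least 8), and Ring1 and Cbx2 in 7 (45% in at least 7). Cbx8 was below background on both arrays of its 3 pairs on slide 5 and is not counted. The Bmi1 differences within slides were 0.09 for FLK1+ 5h, 0.43 and 1.83 for d1 BC, 0.33 and 1.58 for SM, 1.35 and 0.12 for HE1, 1.30 and 1.81 for HE2, and 0.40 and -0.03 for HP. HE2 was the sorted population in which both slides gave a Bmi1 difference above 1.

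**Figure D3:**
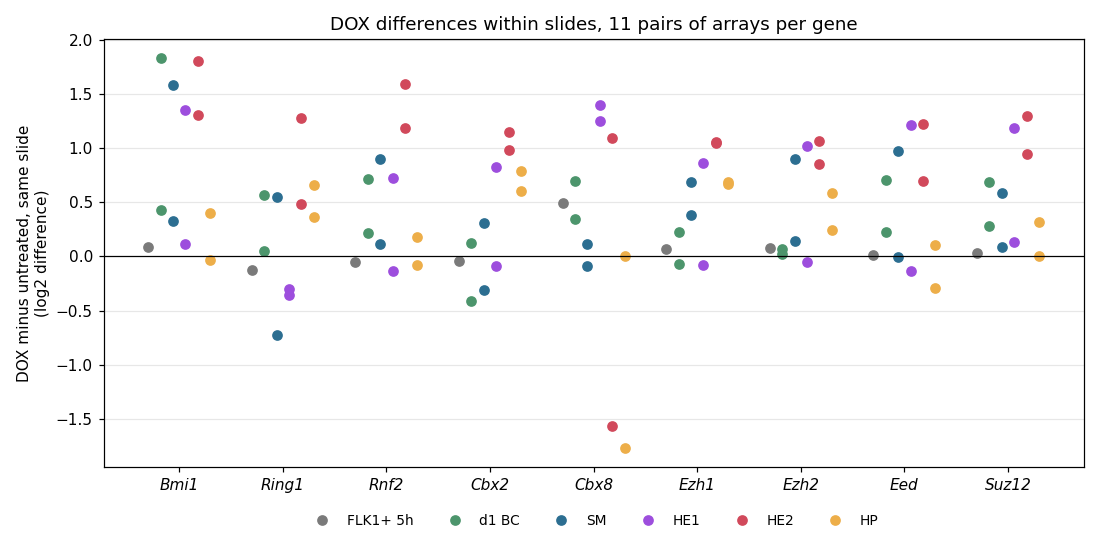
DOX minus untreated log2 signal for each pair of arrays that share a population and a slide, 11 pairs per gene, coloured by population, for the 9 genes other than Cbx7. Suz12 lies above 0 in 11 pairs, Bmi1 and Ezh2 in 10, and Ring1 and Cbx2 in 7, and the 3 pairs of Cbx8 on slide 5 are at background.

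Averaged over SM, HE1, HE2 and HP, 0 of 9 genes had a called DOX effect, where 0.31% of all genes did and 11.7% had an unadjusted p under 0.05. The shared difference of Bmi1 was 0.94 (SE 0.40, adjusted p = 0.394). That of Ezh1 was 0.70 (SE 0.27, adjusted p = 0.368) and that of Cbx2 0.54 (SE 0.24, adjusted p = 0.398), and these 3 had an unadjusted p under 0.05. Ezh2 was at 0.74, Suz12 at 0.70, Rnf2 at 0.51, Eed at 0.49, Ring1 at 0.33 and Cbx8 at 0.32. Cbx8 was below background on slide 5 and was not tested in HE1, HE2 or HP alone, and of the other 8 genes 8 were above 0. The 9 genes together had a median of 0.54 beside 0.07 over all genes. Normexp background correction moved the median of all genes by -0.12 and turned the sign of Cbx8 alone, and median scaling moved it by 0.19 and turned 0 signs. The second Ezh1 probe gave a shared difference of 0.02, so the value of Ezh1 depends on the probe. With the slide as a fixed block the SE was smaller, and the values were 0.88 for Bmi1 (SE 0.24, adjusted p = 0.0758), 0.70 for Ezh1 (SE 0.16, adjusted p = 0.05001, just above the threshold) and 0.63 for Ezh2 (SE 0.17, adjusted p = 0.0697). Whether the DOX effect differed between the 6 populations was tested with an F test of the interaction, which called 0 of 9 of these genes and 0 of 28284 genes overall (limma), where 525 genes (1.86%) had an unadjusted p under 0.05.

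**Figure D4:**
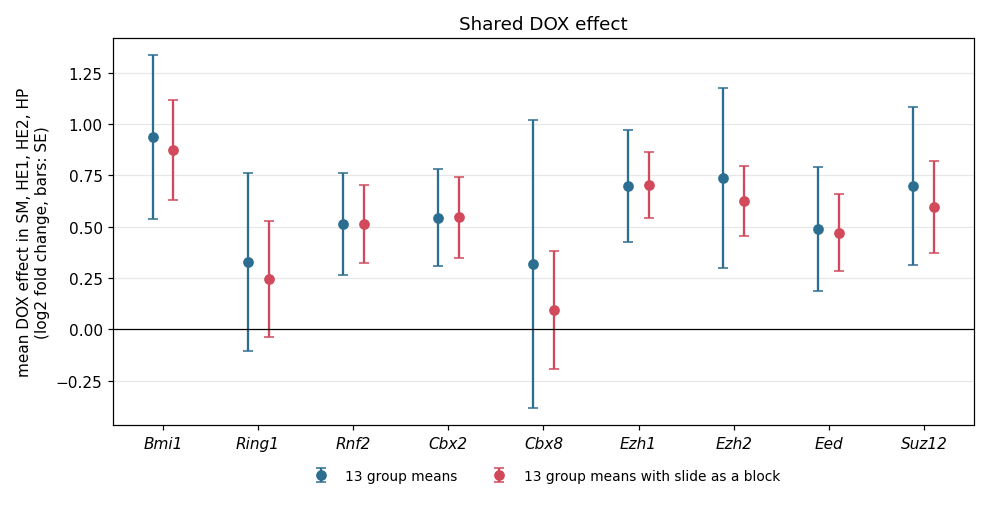
Mean DOX effect over SM, HE1, HE2 and HP for each tested gene, as log2 fold change with the standard error of the limma fit, without and with the slide as a fixed block. All 9 values without the block lie above 0, from 0.32 for Cbx8, which was below background on slide 5, to 0.94 for Bmi1, and the bars are shorter with the block.

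Markers of other cell types had median DOX differences on both sides of 0, and 0 of them were called. The 4 to 6 tested myeloid markers of 6 had median DOX differences of -2.03 in HP, -1.48 in HE2, -1.23 in SM and -0.28 in HE1, and their shared median was -1.37 (1 of 6 above 0), beside 0.07 over all genes. Their mean log2 signal per array was 2.40 to 2.71 in HP without and 0.94 to 1.35 with DOX, and 1.25 to 1.85 in HE2 without and -0.59 to 0.58 with DOX. In SM the 6 erythroid markers had a median of -1.28 (0 of 6 above 0) and the 5 tested pluripotency markers of -1.33 (0 of 5), and smooth muscle and fibroblast markers were at -0.44 and -0.58 (2 of 6 each). Pluripotency markers were at -0.64 in HE1 (1 of 4), -0.81 in HE2 (1 of 3) and 0.34 in HP (3 of 4). Endothelial markers were at -0.28 in HE1 (2 of 6), -0.29 in HE2 (2 of 6), -0.49 in HP (3 of 6) and 0.30 in SM (4 of 6), and hematopoietic markers at 0.22 in HE1 (3 of 6), 0.03 in HE2 (3 of 6), 0.19 in HP (4 of 6) and -0.28 in SM (2 of 6). The 5 tested erythroid markers were at 0.56 in HE1 (3 of 5), 0.72 in HE2 (4 of 5) and 0.84 in HP (5 of 5). In d1 BC hematopoietic markers were at -0.63 (1 of 6), erythroid at -0.53 (1 of 4) and fibroblast at -0.22 (2 of 6). The other marker lists in d1 BC lay between -0.004 and 0.20. In FLK1+ 5h endothelial markers were at 0.47 (5 of 6), and the other marker lists lay between -0.26 and 0.16. The part of these markers in the Polycomb values was not tested. Values of cell division genes are given beside these. Of a list of 14 such genes 13 were tested, and their DOX medians were 0.66 (SM), 0.57 (HE1), 0.81 (HE2) and 0.63 (shared), with 13 of 13 above 0 each time, beside 0.09, 0.09, 0.17 and 0.07 over all genes. In the other populations they were 0.26 in HP (11 of 13 above 0, all genes 0.25), 0.24 in d1 BC (11 of 13, all genes 0.13) and -0.10 in FLK1+ 5h (5 of 13, all genes -0.04), and 0 of these genes were called with DOX. From FLK1+ to HE1 4 of the 13 were called lower (4.75% of all genes), namely Top2a, Mcm2, Mcm5 and Ccne1. Over the 13 group means, which share libraries and slides, the mean of the list correlated with Ezh2 at r = 0.87, Suz12 at 0.78, Eed at 0.72, Ring1 at 0.58, Rnf2 at 0.53, Bmi1 at 0.51, Cbx2 at 0.30 and Ezh1 at -0.01. The part of cell division in the Polycomb values was not tested.

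Several of these genes differed between slides by more than their shared DOX difference. Over the 7 sorted groups present on both slides, the log2 signal on slide 2 was above that on slide 5 by 1.76 for Ezh2 (SE 0.20, adjusted p = 0.00146, limma), by 1.34 for Ring1 (adjusted p = 0.0212), by 1.33 for Suz12 (adjusted p = 0.00641) and by 1.24 for Bmi1 (SE 0.23, adjusted p = 0.00747). These 4 were called of 8 tested, against 16.2% of all genes, 12.1% in this direction, with a median of 0.25 over all genes. Eed (0.75), Ezh1 (0.56), Rnf2 (0.39) and Cbx2 (0.24) were not called. Bmi1, Ring1, Ezh1, Ezh2, Eed and Suz12 were higher on slide 2 in 7 of 7 groups. This comparison was added after the values had been seen. In HE1, HE2 and HP the slide, the scan day and the replicate number coincide and cannot be told apart.

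**Figure D5:**
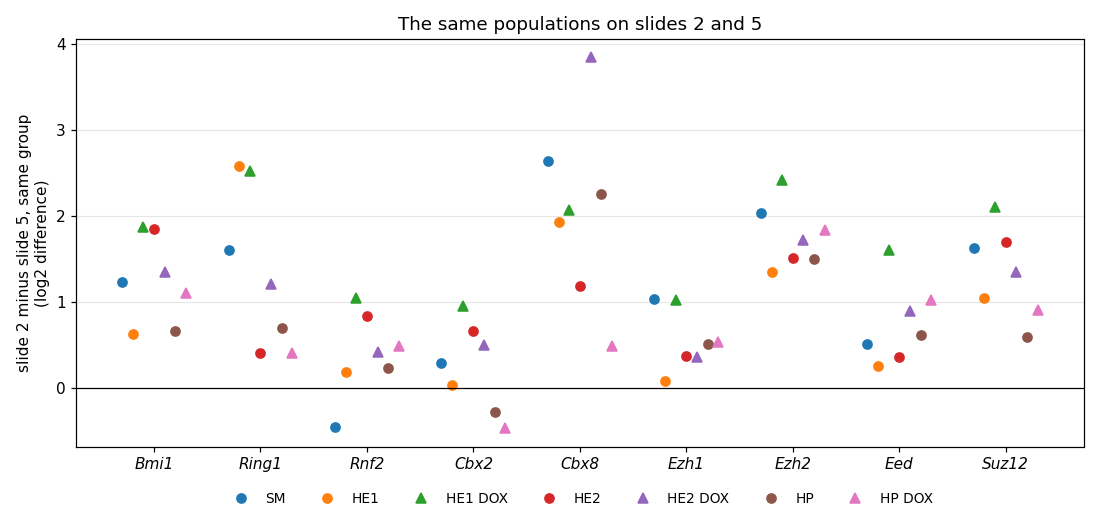
Log2 signal on slide 2 minus that on slide 5, per gene, 1 point for each of the 7 sorted groups with an array on both. Points for Ezh2 lie between 1.35 and 2.42, those for Bmi1 between 0.63 and 1.87, and those for Cbx2 on both sides of 0.

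As a description across the 13 group means, the PRC2 core followed each other, with r = 0.91 between Eed and Suz12, 0.87 between Ezh2 and Suz12 and 0.86 between Ezh2 and Eed. Among PRC1 genes r was 0.80 between Bmi1 and Rnf2, 0.62 between Ring1 and Cbx8, 0.41 between Ring1 and Rnf2, 0.12 between Bmi1 and Ring1, 0.65 between Ring1 and Cbx2, 0.12 between Rnf2 and Cbx2 and -0.36 between Bmi1 and Cbx2. Ezh1 and Ezh2, the alternative methyltransferases, gave r = -0.27. Among 15923 genes well above background on all arrays, those most like Bmi1 were Nxt2 (r = 0.979), Top2b (0.965), Akr1e1 (0.958), Ncoa2 (0.957) and Smc3 (0.955), and those most like Ezh2 were Anp32b (0.953), Dhx33 (0.950), Rtel1 (0.948), Pdhx (0.948) and Cdc25a (0.946). No such genes are given for Cbx7, which was at background on 26 of 27 arrays.

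The other genes of the system gave few calls between untreated populations and 0 with DOX. Of 20 further PRC1 genes measured of 22 listed (Scml2 and Auts2 had no matching probe), 3 were called from FLK1+ to HE1, near the share of all genes called there (11.6%). Phc3, a polyhomeotic subunit, was higher by 2.05 (SE 0.48, adjusted p = 0.00918, limma), Pcgf5, an alternative to Bmi1 in variant PRC1, was higher by 2.86 (adjusted p = 0.0266), and Pcgf6, which belongs to a variant complex of pluripotent and germ cells, was at -2.17 (adjusted p = 0.00968). Of 8 further PRC2 genes 0 were called in any pair of populations. Of 6 tested genes for deubiquitinating subunits and H3K27 demethylases 1 was called, Asxl3, higher by 2.70 from HE1 to HP (adjusted p = 0.0163). Of all genes 4.22% were called there, and 1.7% were called higher. The F test over untreated groups called 3 of 20, 1 of 8 and 0 of 6 of these lists, against 17.9% of all genes. Their median shared DOX differences were 0.37 (14 of 20 above 0), 0.48 (8 of 8) and 0.29 (4 of 6).

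Of 17 tested targets of Polycomb repression, 11 were called in the F test over untreated groups, against 17.9% of all genes. The pairs of populations below have the shares of all genes called given above, from 1.44% (FLK1+ 5h to d1 BC) to 11.6% (FLK1+ to HE1). Cdkn2a, the cell cycle inhibitor locus, rose by 4.05 from FLK1+ 5h to d1 BC (SE 0.61, adjusted p = 0.00237, limma) and stood 3.61 higher in HE1 than in FLK1+ (adjusted p = 0.000866). Hoxb4, a homeobox gene of blood stem cells, rose by 3.72 and stood 3.91 higher over the same pairs, and was at -2.52 from HE1 to HP (adjusted p = 0.0122). The cardiac and mesodermal factors Gata4 and Gata6 were lower in HP than in HE1, at -3.72 and -3.56, and Gata6 was at -2.86 from HE1 to HE2. Hand1 was lower in HE1 than in d1 BC (-3.44) and FLK1+ (-3.01), and at -5.05 from HE1 to HE2, where 1 of 2 HE2 arrays was well above background. Tbx5 was not well above background on either HE1 array and was at least 3.88-fold lower there than in FLK1+ (adjusted p = 0.0198), the HE1 level being set at the array background, but with normexp its difference was -0.08 (adjusted p = 0.920). Many of these calls depended on the fit or on single arrays. Of the 20 calls between untreated populations in the other Polycomb, target and cell division lists, 7 were kept in a fit to the compared groups alone, where Cdkn2a from FLK1+ 5h to d1 BC had an adjusted p of 0.0542, and 15 with median scaling. Without HE1 replicate 1 there were 10, without HE1 replicate 2 9, without FLK1+ replicate 1 12 and without FLK1+ replicate 2 13. The calls kept under all 17 alternatives and all 27 leave-outs of 1 array were 3, those of Cdkn2a and Hoxb4 from FLK1+ to HE1 and of Gata6 from HE1 to HP.

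With DOX, 0 targets were called, and the median shared difference of the 16 tested was -0.02 with 8 above 0. The study itself reported AP-1 binding at Cdkn2a and Cdkn2b, and lower levels of both when AP-1 was blocked. Their direction here is therefore not independent evidence. Cdkn2a had DOX differences of -2.10 in SM, -1.55 in HE1, -1.34 in d1 BC, -0.74 in HE2, -0.68 in HP and -0.34 in FLK1+ 5h. In SM its log2 signal was 2.61, 3.60 and 3.01 without and 0.49 and 1.47 with DOX, and in HE1 3.09 and 2.16 without and 1.52 and 0.63 with DOX. The untreated and DOX arrays did not overlap in either, which held in this direction for 6.02% of all genes in SM and 8.33% in HE1. It was lower with DOX in 9 of 11 pairs within slides, and 4.89% of all genes were higher in at most 2 pairs. The shared difference was -1.27 (SE 0.30, adjusted p = 0.0876), not called. It was called with the slide as a fixed block (-1.22, adjusted p = 0.0381), with normexp (adjusted p = 0.0434), with the authors' log2 values (adjusted p = 0.0172) and with quantile normalization (adjusted p = 0.0441), among other settings. It was not called with median scaling (-1.07, adjusted p = 0.280), the replicate block (adjusted p = 0.103), array weights (adjusted p = 0.178), a fit to the compared groups alone (adjusted p = 0.327), either other filter or every probe on its own, nor in any leave-out of 1 array (adjusted p 0.0605 to 0.262). Cdkn2b, the neighbouring inhibitor gene, was not well above background on 6 of the HE1 DOX, HE2 and HP arrays. It could be compared in the 7 pairs with both arrays well above background, and was lower with DOX in 7 of 7. The same count was not made for all genes. For FLK1+ 5h the difference of means was 0.39 (SE 1.20), on the side of more signal with DOX. Replicate 1 there was -2.43 without and -1.36 with DOX, on different slides that form no pair. Cdkn2b differences of means were -2.28 (HE1), -2.07 (SM) and -1.39 (d1 BC), and HE2 and HP were not tested alone. Its shared difference, which includes the arrays at background, was -1.92 (SE 0.59, adjusted p = 0.238) and not called, and it was -0.998 with normexp (adjusted p = 0.231), -1.19 with the authors' log2 values (adjusted p = 0.179) and -1.28 without HP replicate 2 (adjusted p = 0.361). With a block for the slide or the scan day it was called, at -2.08 for the slide as a fixed block (adjusted p = 0.0282), -2.04 for the slide as a random block (adjusted p = 0.0203) and -2.09 for the scan day (adjusted p = 0.0228), and so it was without HP replicate 1, an array below background (-2.56, adjusted p = 0.0262).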

How the data were processed

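Expression was measured in 27 samples of 13 groups with 1-colour Agilent arrays for mouse. The authors deposited for each spot an intensity, background-subtracted and detrended by Feature Extraction (10.7.3.1 per the file headers, 10.7.1.1 per the submitters' processing notes) and not scaled between arrays, with the median spot and background intensity. They also deposited log2 values normalized between arrays, used as an alternative. The study used limma.

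Of 62976 spots per array, 55681 probes were not controls, and RefSeq gave symbols for 26582. From the log2 intensity the array's 75th percentile was subtracted, and the probe with the highest mean was kept for each of 37208 genes or transcripts. Group means were fitted with lmFit and eBayes (limma 3.58.1, R 4.3.3; 14 residual and 4.49 prior degrees of freedom). Testing required that every array of 1 or more of the compared groups was well above background. Calls needed a change of 2-fold or more and a p below 0.05 after Benjamini-Hochberg adjustment over all genes tested. Other software was Python 3.11.15 with numpy 2.4.6, pandas 2.3.3 and matplotlib 3.10.9, and version 1.17.8 of data.table and 2.0.0 of jsonlite in R. The fit was tested on simulated data. A lower bound sets the dim group at the lowest signal well above background on each array, or at the probe's own signal if that is higher. The number of arrays limits the precision.

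The 10 genes and all lists (other PRC1, other PRC2, deubiquitinating and demethylase genes, Polycomb targets, cell division, cell type markers) were chosen with earlier results of these data known. All 10 genes are named in the text, with list members that were called and Cdkn2a and Cdkn2b, and the 5 genes nearest to Bmi1 and Ezh2. The alternatives were normexp (offset 50, on median signals), quantile normalization, median scaling, the authors' values, other filters, probes and thresholds, array weights, a mean-variance trend, blocks for the replicate number, the scan day or the slide, a fit to the compared groups alone, and leaving out each array. Genomic coordinates are those of the RefSeq promoter table (GRCm38.p6).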

Additional observations from a re-analysis of the deposited data

How the results depend on the processing

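The counts of Polycomb genes called with DOX, with a shared DOX effect, or with a DOX effect that differed between populations were 0 under all 17 alternatives, all 27 leave-outs of 1 array and, chosen after seeing the data, without both SM arrays of slide 2. The 2 calls between untreated populations became 1 with normexp, with no filter, with detection required in both groups, with every probe on its own and with the slide as a fixed block (Cbx2 in each), 1 with only the groups compared (Cbx8 from FLK1+ to HE1), 3 with median scaling (Cbx2, Cbx8 and Ring1 from FLK1+ to HE1), and 4 with quantile normalization and with the authors' processed values, which added Ezh1 from FLK1+ and from SM to HE1. Over the leave-outs the count ran from 0 to 2, with 0 without HE1 replicate 1, HE1 replicate 2 or FLK1+ replicate 1. The Ezh1 difference from d1 BC to HE1 lay between 2.08 and 2.15 in the leave-outs and was called in 8 of 27. The 1 gene that varied over untreated populations became 2, Cbx2 and Ezh1, with quantile normalization, the authors' values, a mean-variance trend, array weights and, chosen after seeing the data, without both SM arrays of slide 2, and it was 1 to 1 over the leave-outs. The shared DOX effect of Bmi1 lay between 0.68 and 1.13 over the alternatives (adjusted p 0.0758 to 0.688) and between 0.70 and 1.17 over the leave-outs (adjusted p 0.158 to 0.927). With the replicate number as a block it was 0.86 (SE 0.27, adjusted p = 0.246), and the 2 calls between untreated populations were the same 2. Deviations of arrays with the same number correlated with r from 0.25 to 0.83 between DOX and untreated arrays of d1 BC, SM, HE1, HE2 and HP, where the number and the slide coincide, and at -0.01 in FLK1+ 5h, and over all comparisons from -0.42. The labels give the number no meaning, so it was not taken to pair the samples. The median DOX difference of the Polycomb genes changed sign in leave-outs of 1 array in HE1, HP and FLK1+ 5h, as given with those medians. The causes of these changes were not tested. Where an array left out leaves 1 in its group, that array is assumed to vary like the other groups. The sign changed for 0 to 15 of 137 values of single genes per setting. The SE of a DOX difference in 1 population was 0.44 to 1.43, so with 2 arrays a group differences near 2-fold were not detectable in 1 population, and Cbx7 and part of the Cbx8 arrays were at background.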
